A study of Mus musculus with 62 samples.

Results

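Liver zonation is the division of labour among hepatocytes along the path of the blood. Hepatocytes around the central vein are called pericentral and those around the portal triad periportal. Wnt signals from the endothelium of the central vein keep the pericentral program active through beta-catenin, and oxygen, hormones and nutrients in portal blood favour the periportal program. In the periportal zone amino acids are broken down and their ammonia enters the urea cycle, whereas the last pericentral layer captures remaining ammonia as glutamine and its neighbours carry much of the cytochrome P450 metabolism of foreign compounds. A set of 10 such markers, chosen by mouse Entrez identifier, was described here: the pericentral genes Glul, Cyp2e1, Oat, Axin2 and Lgr5 and the periportal genes Cyp2f2, Hal, Sds, Gls2 and Ass1, 10 of the 16206 genes listed in the liver table.

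The study gave female C57BL/6 mice the MARBLES mixture of polychlorinated biphenyls (PCBs) by mouth and sequenced RNA of the liver, prefrontal cortex and striatum, 62 libraries in all. The 20 liver libraries came from 4 vehicle mice, 4 mice given 0.1 mg/kg, 6 mice given 1 mg/kg and 6 given 6 mg/kg. All the mice shared sex and strain, and the labels used here give neither age, nor the length of exposure, nor what the vehicle was. Titles carry an animal number, taken as a separate mouse each. Whether animals shared a litter or cage is not given in the sources used here, so p-values measure the spread between these libraries.

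None of the 10 markers passed an adjusted p of 0.05 at any dose, where 2.8% of all genes did at 6 mg/kg, 0% with 1 mg/kg and 0.0154% with 0.1 mg/kg. For each of the 10 the range at 6 mg/kg overlapped that of vehicle, as for all but 6.76% of genes. A count of 0 of 10 is near these shares. The pericentral genes Glul and Lgr5 were below the vehicle mean in 6 of 6 animals at 6 mg/kg, to 0.706 and 0.558 of the vehicle level in the fitted model, without passing the adjustment over all genes. The share of all genes with 6 of 6 animals below was not computed, and the hepatocyte genes Trf, Fgb and Hnf4a also had it. An unadjusted edgeR p under 0.05 at this dose, which both markers had, was reached by 24.2% of all genes. Ass1, a urea cycle enzyme, ranged 74.2-fold between single livers, and it rose and fell from animal to animal together with Cyp2f2. A single liver at 6 mg/kg, that of animal 52, held the lowest value of all 20 libraries for 6 of the 10 markers, including all 5 periportal ones, and the highest for Axin2. By total counts this liver also had the lowest summed hepatocyte markers of the 20, at 103700 CPM (counts scaled to a common library size). Its summed cholangiocyte markers were the highest on that scale, at 137 CPM against 34.8 to 112 CPM in the others. Scaled as the single genes were, Spp1, the bulk of that sum, reached at most 102.8 CPM at 6 mg/kg, against 107.9 CPM in vehicle. Whether the sum ranks highest on this second scale was not computed. The part of these sums in the marker values of animal 52 was not tested.

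The libraries were close in depth, with 7381179 to 10203247 counts each, and every marker was counted in every library, with 16 counts as the lowest value (Axin2). All 8 hepatocyte markers were expressed, and their summed level by total counts was 119400 to 134700 CPM in vehicle and 103700 to 143700 CPM at 6 mg/kg, so the tissue label was met. Some other properties of the libraries differed between vehicle and 6 mg/kg. The clock index, the log2 level of Dbp less that of Arntl, was 2.06 to 5.50 in vehicle and 6.66 to 8.75 at 6 mg/kg (two-sided exact permutation p = 0.00952, n = 4 and 6). At 0.1 mg/kg it was 6.23 to 8.20 and at 1 mg/kg 5.82 to 8.92, so every dosed group lay above the vehicle range. A GC slope was computed as the correlation, over genes, of transcript GC content with how far the library departed from the average library. It was -0.27 to -0.15 in vehicle and -0.007 to 0.24 at 6 mg/kg (two-sided exact permutation p = 0.00952, n = 4 and 6). Counts of 17 brain genes made up 0.00265% to 0.0147% of vehicle libraries and 0.00302% to 0.0159% at 6 mg/kg, which overlapped (two-sided exact permutation p = 0.686, n = 4 and 6). This result rested on vehicle animal 7, at 0.0147%, with the other vehicle livers at 0.00265% to 0.00305%. Without animal 7 the same test gave a p below 0.05. The part of these properties in the results below was not tested apart from the fits named there.

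Levels can be compared between genes only per length of transcript. In vehicle livers the order, in CPM per kilobase, was Cyp2e1 at 2773 ± 393 (SD, n = 4), Oat at 480.7 ± 46.9, Glul at 451 ± 45.5, Ass1 at 334 ± 156, Sds at 261 ± 50.8, Gls2 at 159.8 ± 13.8, Cyp2f2 at 113.9 ± 29.9, Hal at 62.4 ± 5.06, Lgr5 at 1.92 ± 0.296 and Axin2 at 1.76 ± 0.434. Cyp2e1 stood above all the others, whereas Oat and Glul overlapped, as did Ass1 with each of Oat, Glul, Sds, Gls2 and Cyp2f2. Lgr5 and Axin2 were not separated from each other and lay far under the enzymes. In the vehicle brain tables, which were scaled separately, Cyp2e1, Cyp2f2 and Hal were near 0, with means of 0.0695 to 0.187 CPM. Glul, which astrocytes also express, had 1179 ± 59.2 CPM in the prefrontal cortex (SD, n = 4) against 1270 ± 80.0 CPM in the liver by total counts, and Axin2 had 24.5 ± 1.84 CPM against 7.61 ± 2.10 CPM.

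Among the pericentral enzymes, Glul (Entrez 14645, chr1:153899929-153909723 on mm10, plus strand) makes glutamine from glutamate and ammonia. Its level in vehicle was 1094, 1228, 1367 and 1352 CPM in animals 3, 4, 7 and 8. At 0.1 mg/kg it was 1360, 868.5, 1220 and 1336 CPM. The 6 livers at 1 mg/kg ran from 874.9 CPM through a median of 1138 to 1373, and those at 6 mg/kg from 598.9 through 841 to 1177 CPM. All 6 livers at 6 mg/kg lay below the vehicle mean of 1260 ± 127 CPM (SD, n = 4) and 4 of them below every vehicle liver, but the ranges overlapped. The log2 fold change at 6 mg/kg was -0.50 (SE 0.203, edgeR adjusted p = 0.140, unadjusted p = 0.0214). Smaller doses gave -0.18 (SE 0.204) at 1 mg/kg and -0.07 (SE 0.224) at 0.1 mg/kg, and the slope per step of dose was -0.17 (SE 0.0644, edgeR adjusted p = 0.115).

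Glul kept a lower value at 6 mg/kg in all 20 alternative analyses, from -0.60 without animal 56 to -0.41 without animal 54. With the clock index as a covariate the log2 fold change was -0.42 (unadjusted p = 0.203), and with the GC slope it was -0.50 (unadjusted p = 0.0971).

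Lgr5 (Entrez 14160, chr10:115450314-115587780, minus strand) is the R-spondin receptor that strengthens Wnt signalling and is itself a Wnt target. Vehicle livers held 9.01, 9.28, 7.50 and 10.96 CPM. At 0.1 mg/kg the values were 8.68, 7.25, 4.99 and 7.65 CPM. Livers at 1 mg/kg spread from 2.65 through a median of 5.61 to 10.77 CPM, and those at 6 mg/kg from 3.80 through 4.59 to 8.44 CPM. Apart from animal 58, at 8.44 CPM, the 6 mg/kg livers were all below the vehicle range. Relative to vehicle the change was -0.84 on the log2 scale (SE 0.322, edgeR adjusted p = 0.124, unadjusted p = 0.0157), -0.53 (SE 0.321) at 1 mg/kg and -0.36 (SE 0.352) at 0.1 mg/kg. The slope per dose step was -0.27 (SE 0.0975, edgeR adjusted p = 0.0946); with 1 surrogate variable in the model it was -0.32 and passed, the only pass of a marker among the analyses run. With the clock index as a covariate the 6 mg/kg value was -0.80 (unadjusted p = 0.148), and with the GC slope -0.95 (unadjusted p = 0.0546). Lgr5 was covered by 22 to 97 counts per library, so counting error weighs more on it than on the enzymes.

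Axin2 (Entrez 12006, chr11:108917828-108950783, plus strand), a scaffold of the complex that degrades beta-catenin and a feedback target of Wnt signalling, did not share the direction of Lgr5. Its level was 9.01, 5.36, 9.08 and 6.55 CPM in vehicle, 7.43 to 10.46 CPM at 0.1 mg/kg and 2.22 to 9.09 CPM at 1 mg/kg. At 6 mg/kg the 6 livers held 24.4, 6.24, 5.70, 11.06, 6.21 and 17.9 CPM in animals 52, 53, 54, 55, 56 and 58. Thus 3 livers were above the vehicle range and 3 were inside it. On the log2 scale the change was 0.67 (SE 0.391, edgeR adjusted p = 0.291), 0.33 (SE 0.354, edgeR adjusted p = 0.630) without animal 52 and 0.81 (SE 0.385, edgeR adjusted p = 0.228) without animal 54. Animal 52 also held the largest brain share at 6 mg/kg, 0.0159%; with the brain share as a covariate the change at 6 mg/kg was 0.61 (unadjusted p = 0.140).

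Cyp2e1 (Entrez 13106, chr7:140763819-140774990, plus strand), the ethanol- and acetaminophen-oxidizing cytochrome, ranged from 2443 to 9143 CPM over all livers. Its 6 mg/kg values ran from 2443 through a median of 3772 to 7961 CPM, against 4443 to 6108 CPM in vehicle; 4 of 6 livers were below every vehicle liver and 1 was above. The log2 fold change was -0.21 (SE 0.272, edgeR adjusted p = 0.662), and relative to the 0.1 mg/kg livers it was -0.58. With 1 library left out it ran from -0.47 (SE 0.238) without animal 55 to -0.09 (SE 0.261) without animal 52. Oat (Entrez 18242, chr7:132557475-132576398, minus strand), ornithine aminotransferase, had 906 to 1152 CPM in vehicle and 631.5 to 1292 CPM at 6 mg/kg, or -0.24 on the log2 scale (SE 0.218, edgeR adjusted p = 0.520), -0.38 without animal 53 and -0.16 without animal 58; with the GC slope as a covariate it was -0.11. At 0.1 mg/kg 3 of 4 livers were above every vehicle liver for Oat, or 0.32 on the log2 scale (SE 0.240, edgeR adjusted p = 0.994).

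**Figure D1:**
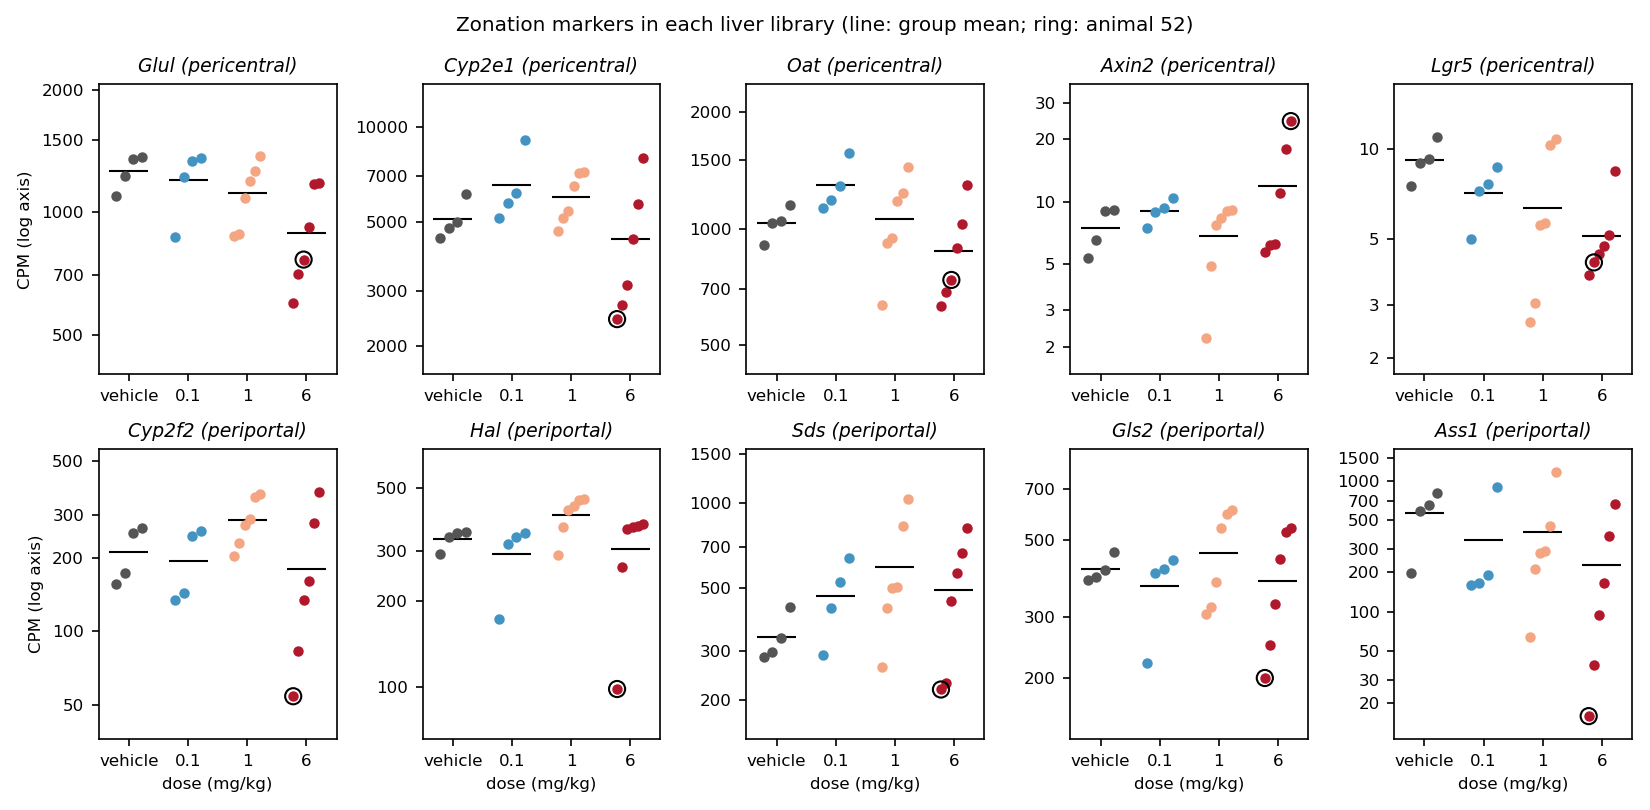
Level of each zonation marker (CPM, log axis, a separate scale in each panel) against dose in mg/kg; each point is 1 of the 20 liver libraries, the line is the group mean, and the ring marks animal 52 at 6 mg/kg. The 6 mg/kg points overlap the vehicle points in all 10 panels, and Ass1 spans 15.8 to 1169 CPM.

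Among the periportal genes, Cyp2f2 (Entrez 13107, chr7:27119955-27133660, plus strand) encodes a cytochrome widely used as a periportal marker. Vehicle livers held 173.2, 254.2, 266.5 and 156.4 CPM, and 0.1 mg/kg livers 133.8, 257.6, 245.4 and 143.0 CPM. At 1 mg/kg the range was 203.2 to 367 CPM around a median of 280.8, and 4 of 6 livers exceeded every vehicle liver. At 6 mg/kg it was 54.1 to 372.8 CPM around 147.4, with 3 livers below the vehicle range and 2 above it. Livers at 6 mg/kg thus lay on both sides of the vehicle group. The change was 0.43 on the log2 scale (SE 0.388, edgeR adjusted p = 0.750) at 1 mg/kg and -0.24 (SE 0.381, edgeR adjusted p = 0.736) at 6 mg/kg, and with 1 library left out the latter ran from -0.58 (SE 0.344) without animal 55 to -0.05 (SE 0.338) without animal 52.

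Hal (Entrez 15109, chr10:93488768-93516761, plus strand), histidine ammonia-lyase, was nearly even in vehicle, at 292.8 to 351.7 CPM. In all, 5 of 6 livers at 1 mg/kg were above that range and 1 was just below it, or 0.28 on the log2 scale (SE 0.271, edgeR adjusted p = 0.769). At 6 mg/kg 4 livers had 359.9 to 373.6 CPM, slightly above the vehicle range, while animals 58 and 52 had 264.6 and 98.2 CPM. The fitted change of -0.12 (log2, SE 0.269, edgeR adjusted p = 0.808) became 0.06 (SE 0.192) without animal 52 and -0.19 (SE 0.282) without animal 53.

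Gls2 (Entrez 216456, chr10:128194635-128210004, plus strand), the liver glutaminase that releases ammonia from glutamine, is the metabolic counterpart of Glul. It had 382.6 to 461.5 CPM in vehicle, 221.2 to 436.6 CPM at 0.1 mg/kg, 305.5 to 608.2 CPM at 1 mg/kg and 199.9 to 540.7 CPM at 6 mg/kg. The spread widened around an almost unmoved centre, with a median of 400.2 CPM in vehicle and 383.8 CPM at 6 mg/kg. Its log2 fold change was -0.11 (SE 0.272, edgeR adjusted p = 0.834) at 6 mg/kg, 0.02 (SE 0.256) without animal 52 and -0.24 (SE 0.277) without animal 54.

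Sds (Entrez 231691, chr5:120476547-120483932, plus strand), serine dehydratase, which feeds amino acid carbon into gluconeogenesis, was the periportal marker with higher group means at every dose. Vehicle livers held 285.3, 297.1, 333.8 and 429.5 CPM. At 0.1 mg/kg the values were 641.4, 525.8, 425.7 and 288.6 CPM. The 1 mg/kg livers ran from 262.4 through a median of 503.1 to 1037 CPM and the 6 mg/kg livers from 218.3 through 507.9 to 820.5 CPM. In each of these last groups 4 of 6 livers exceeded every vehicle liver, and the groups overlapped at the low end. Against vehicle the log2 fold change was 0.48 at 0.1 mg/kg (SE 0.404, edgeR adjusted p = 0.994) and 0.82 at 1 mg/kg (SE 0.377, edgeR adjusted p = 0.579, unadjusted p = 0.0409). It was 0.55 at 6 mg/kg (SE 0.373, edgeR adjusted p = 0.371) and with 1 library left out it ran from 0.34 without animal 53 to 0.70 without animal 52. The 6 mg/kg value of Sds turned to -0.07 with the clock index and to -0.32 with the GC slope as a covariate.

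Ass1 (Entrez 11898, chr2:31470270-31520670, plus strand), argininosuccinate synthase, joins citrulline and aspartate in the urea cycle. Vehicle livers held 817.5, 655.3, 594.9 and 196.5 CPM in animals 3, 4, 7 and 8. At 0.1 mg/kg 3 livers had 161.1 to 189.7 CPM and animal 28 had 901.5 CPM. At 1 mg/kg the 6 livers held 1169, 449.3, 210.7, 63.8, 291.8 and 280.3 CPM in animals 41, 42, 45, 46, 48 and 50. At 6 mg/kg animals 52, 53, 54, 55, 56 and 58 had 15.8, 164.9, 94.0, 378.6, 670.8 and 39.0 CPM. High and low livers occurred in every group, and 4 of 6 livers at 6 mg/kg were below the lowest vehicle value. These levels rest on 151 to 10939 counts per library, far above counting error. The log2 fold change at 6 mg/kg was -1.32 with a 95% interval from -3.08 to 0.45 (SE 0.844, edgeR adjusted p = 0.343), -2.03 without animal 56 and -1.07 without animal 52; it was 0.13 with the clock index and -0.33 with the GC slope as a covariate. Within dose groups the standard deviation of its log2 CPM was 1.51, against a median of 0.392 over all tested genes and 0.307 for Glul; 99.1% of tested genes had a smaller one. The next in spread were Axin2 at 0.671, Cyp2f2 at 0.670, Sds at 0.644, Lgr5 at 0.534, Hal at 0.496, Gls2 at 0.465, Cyp2e1 at 0.438 and Oat at 0.338.

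Read against the whole table, 0 of the 10 markers passed at 6 mg/kg by edgeR's quasi-likelihood test, where 2.8% of 12968 genes did, and 2 had an unadjusted p under 0.05, where 24.2% of genes did. Likewise 0 passed at 1 mg/kg (0% of all genes) with 1 at an unadjusted p under 0.05 (8.44% of all genes). At 0.1 mg/kg 0 passed (0.0154% of all genes) and 0 had such an unadjusted p (4.1%), and for the slope over dose 0 passed (4.81%) and 2 had one (25.4%). No marker had 6 mg/kg and vehicle values that did not overlap, where 6.76% of all genes did. DESeq2 passed 0 of the 10 at 6 mg/kg, where 9.26% of genes passed, at 1 mg/kg (0.198%), at 0.1 mg/kg (0.0752%) and along the slope (11.6%). It gave 2, 1, 0 and 2 of them an unadjusted p under 0.05, beside 27.1%, 9.89%, 4.29% and 29.2% of genes. The median log2 fold change at 6 mg/kg was -0.24 over the 5 pericentral and -0.12 over the 5 periportal markers, beside 0.02 over all tested genes. A p that misses the threshold does not show that the levels were the same: the 95% interval of the fold at 6 mg/kg was 0.528 to 0.945 for Glul, 0.352 to 0.886 for Lgr5, 0.585 to 1.28 for Cyp2e1 and 0.118 to 1.37 for Ass1.

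**Figure D2:**
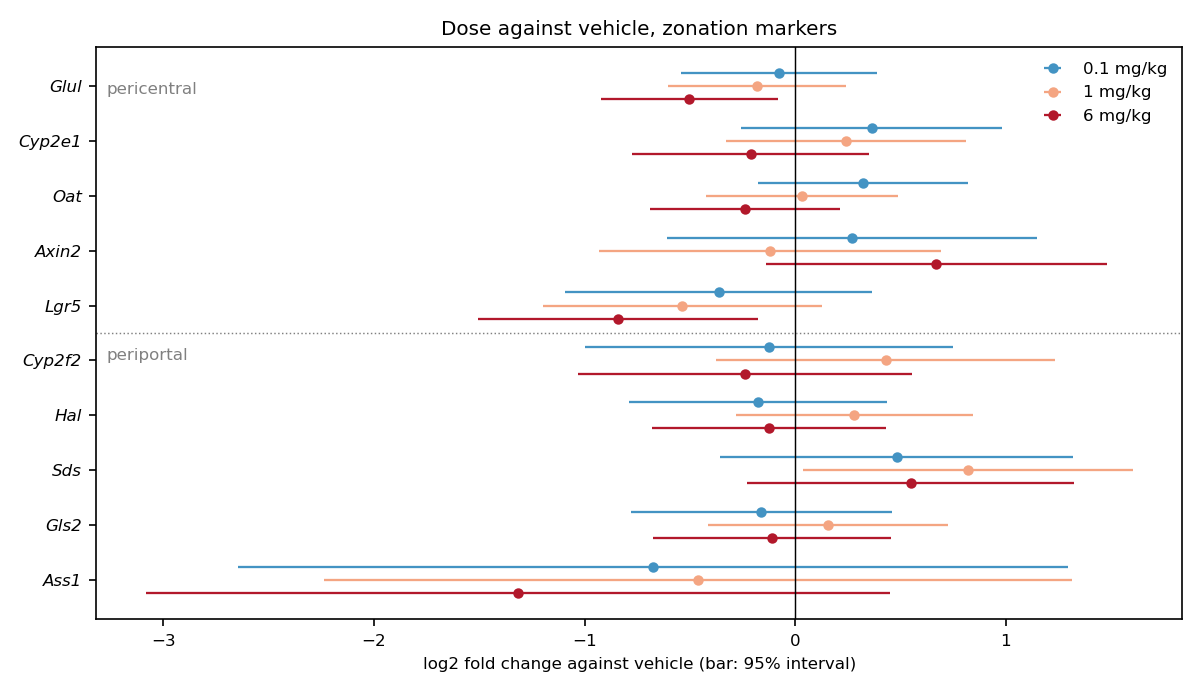
Log2 fold change of each dose against vehicle (x axis) for the 5 pericentral and 5 periportal markers, with 95% intervals; the doses share the same 4 vehicle libraries. At 6 mg/kg the intervals of Glul and Lgr5 lie below 0, no marker passes the adjustment over all genes, and the interval of Ass1 is the widest.

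The markers of each zone were also averaged in each liver as log2 CPM. The pericentral mean was 7.65 to 7.88 in vehicle, 7.70 to 8.02 at 0.1 mg/kg, 7.22 to 7.91 at 1 mg/kg and 7.10 to 7.62 at 6 mg/kg, so that all 6 livers at 6 mg/kg were below all 4 vehicle livers, with group means of 7.44 ± 0.179 (SD, n = 6) and 7.75 ± 0.102 (SD, n = 4). No test is attached to this average because the genes were chosen with earlier results known. Of single genes 6.76% did not overlap between these groups, and the share for averages of 5 genes was not computed. Of the 5 pericentral markers 0 passed alone, and Axin2 was higher at 6 mg/kg. The periportal mean was 8.15 to 8.52 in vehicle and 6.36 to 8.72 at 6 mg/kg, with medians of 8.50 and 8.21. The pericentral minus periportal difference therefore had the mean -0.67 ± 0.277 in vehicle (SD, n = 4), -0.36 ± 0.602 at 0.1 mg/kg (SD, n = 4), -0.99 ± 0.589 at 1 mg/kg (SD, n = 6) and -0.45 ± 0.846 at 6 mg/kg (SD, n = 6). It moved in no fixed order with dose, and its spread was larger at 6 mg/kg than in vehicle. Without Ass1 the group means were -0.53, -0.40, -1.09 and -0.71 in the same order, so the 6 mg/kg value lay above the vehicle value with Ass1 and below it without. Without animal 52, whose difference was 1.06, the 6 mg/kg mean was -0.75 ± 0.457 (SD, n = 5) with Ass1 and -0.94 ± 0.366 (SD, n = 5) without it, both below vehicle. In bulk tissue, fewer cells of a zone and less RNA of a marker per cell cannot be told apart.

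**Figure D3:**
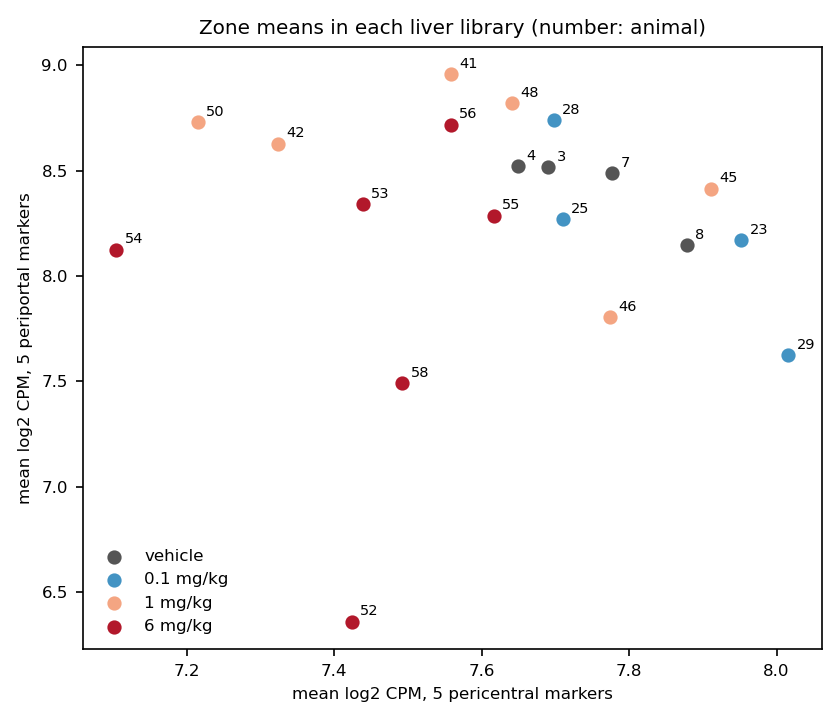
Mean log2 CPM of the 5 pericentral markers (x axis) against that of the 5 periportal markers (y axis) in each of the 20 liver libraries, coloured by dose and numbered by animal. The 6 mg/kg livers lie at 7.10 to 7.62 on the pericentral axis, left of the vehicle livers at 7.65 to 7.88, and animal 52 is lowest on the periportal axis at 6.36. How often averages of 5 other genes separate in this way was not computed.

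How the markers varied together was measured on log2 CPM after the mean of each dose group had been subtracted, over 20 livers and 45 pairs. Of these, 2 pairs passed a Benjamini-Hochberg adjusted p of 0.05, both of them periportal. Neither the share of pairs of other genes that would pass nor their median r was computed. Whether the markers vary together more than other genes of these livers was therefore not tested. Cyp2f2 and Ass1 had a Pearson r of 0.80 (permutation p = 0.00057, adjusted p = 0.01845) and a Spearman rho of 0.71 (permutation p = 0.00266, adjusted p = 0.0599). Hal and Gls2 had a Pearson r of 0.77 (permutation p = 0.00082, adjusted p = 0.01845) and a Spearman rho of 0.76 (permutation p = 0.00085, adjusted p = 0.0382). Without the 2 livers farthest from the median of the first gene the values of r were 0.71 and 0.64, so neither pair rested on those livers alone. The rank correlation of Cyp2f2 and Ass1 did not pass the adjustment.

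Over the 10 periportal pairs the median r was 0.53, with 8 positive, whereas over the 10 pericentral pairs it was 0.04, with 5 positive, and over the 25 pairs across zones it was -0.07, with 10 positive. Without animal 52, which was lowest in all 5 periportal markers, these medians were 0.31, 0.04 and -0.14, with 7 of 10, 5 of 10 and 8 of 25 pairs positive; Cyp2f2 and Ass1 then had an r of 0.71, Hal and Gls2 one of 0.74, and Cyp2f2 and Hal went from 0.65 to 0.36. Glul and Cyp2e1 had an r of 0.58 (permutation p = 0.0455, adjusted p = 0.2096), whereas Oat and Axin2, both in the pericentral list, had an r of -0.62 (permutation p = 0.0266, adjusted p = 0.187). Axin2 had negative r values with all 5 periportal markers, from -0.55 with Hal to -0.29 with Cyp2f2, none of which passed. Without animal 52 they ran from -0.39 with Sds to 0.02 with Cyp2f2. Cyp2e1, a pericentral gene, had an r of 0.65 with the periportal Cyp2f2 (permutation p = 0.0368, adjusted p = 0.207), which fell to 0.31 without the 2 livers farthest from the median. None of 40 relations between a marker and the GC slope, a like slope on transcript length, the clock index or the brain share passed an adjusted p of 0.05; the strongest was Sds with the length slope (Pearson r = -0.65, permutation p = 0.00205, adjusted p = 0.082; Spearman rho = -0.53, adjusted p = 0.4798).

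**Figure D4:**
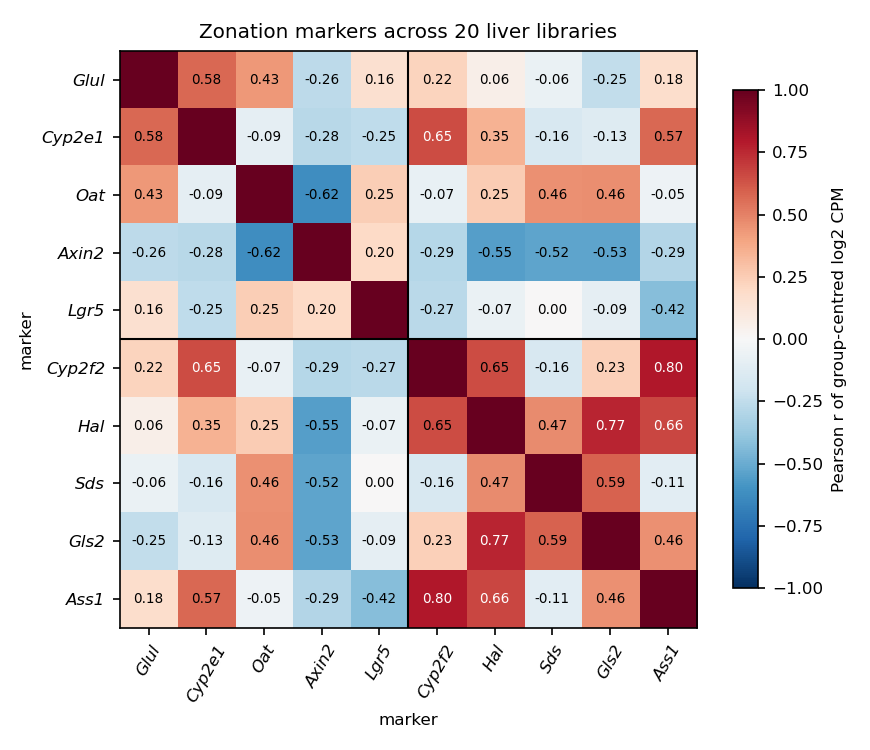
Pearson r between each pair of markers over 20 liver libraries after subtraction of dose group means; black lines separate the 5 pericentral from the 5 periportal genes. Periportal pairs have a median of 0.53 with the highest at 0.80 (Cyp2f2 and Ass1), and pericentral pairs a median of 0.04.

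The promoters of Ass1 and Cyp2f2 are shown because this pair passed, and that of Hal because it belongs to the other pair that passed. Each runs from 250 bases before to 50 bases after the gene start in RefSeq GRCm38.p6, 5′ to 3′ on the gene's own strand, 300 bases in all. Capitals mark matches, on either strand, to an E-box spelled CACGTG. Also marked are the letters TATAAA of the motif that binds the TATA-binding protein, and CTTTGA from the core of the site for TCF, the Wnt effector. No matches overlapped.
Ass1, chr2:31470020-31470319: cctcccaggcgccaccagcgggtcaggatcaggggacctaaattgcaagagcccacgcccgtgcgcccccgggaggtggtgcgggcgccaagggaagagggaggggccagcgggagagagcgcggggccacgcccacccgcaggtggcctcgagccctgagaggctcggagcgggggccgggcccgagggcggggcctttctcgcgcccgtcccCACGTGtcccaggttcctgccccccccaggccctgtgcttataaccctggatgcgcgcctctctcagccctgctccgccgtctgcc
Cyp2f2, chr7:27119705-27120004: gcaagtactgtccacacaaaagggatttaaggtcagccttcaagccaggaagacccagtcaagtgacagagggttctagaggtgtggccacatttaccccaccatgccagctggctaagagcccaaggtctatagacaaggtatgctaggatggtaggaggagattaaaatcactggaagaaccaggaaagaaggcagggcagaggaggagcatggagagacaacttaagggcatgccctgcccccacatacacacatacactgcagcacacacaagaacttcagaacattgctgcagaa
Hal, chr10:93488518-93488817: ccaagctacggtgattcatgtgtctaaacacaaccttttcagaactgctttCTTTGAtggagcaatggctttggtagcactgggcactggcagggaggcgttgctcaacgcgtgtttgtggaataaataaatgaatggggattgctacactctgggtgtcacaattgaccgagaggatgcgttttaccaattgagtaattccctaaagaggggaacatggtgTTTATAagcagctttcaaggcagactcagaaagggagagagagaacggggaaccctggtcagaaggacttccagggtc
Ass1 holds an E-box that starts 36 bases before the gene start; 7.15% of 32851 promoters of this length hold one. Hal holds the TATA letters on the opposite strand, printed as TTTATA, 28 bases before its start (13.6% of promoters hold a match). It also holds the TCF core 199 bases before its start (16% of promoters). Cyp2f2 holds none of the 3 motifs. Ass1 has 27 CpG dinucleotides and 74% GC, Cyp2f2 has 0 CpG and 50.3% GC, and Hal has 7 CpG and 47.7% GC, where the median promoter has 7 CpG and 5.43% of promoters have none. Of the 10 markers, 7 matched the promoter table. Of the pericentral ones, Cyp2e1 holds a TATA box and a TCF core, at 31 and 135 bases before its start, and Glul, Oat and Axin2, with 17, 22 and 31 CpG, hold none of the 3 motifs. The Axin2 stretch, chr11:108920099-108920398, lies inside the gene as placed above, from 108917828, and so describes another start. A match describes the letters only.

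The genes whose variation over the 20 livers was most like that of a marker were named by the highest Pearson r of group-centred log2 CPM among all tested genes. For Glul they were Apold1 (r = 0.80), Zkscan4 (0.74) and Slc1a2 (0.74), the last a glutamate transporter of pericentral hepatocytes and of astrocytes. Apold1, at 0.136 to 3.19 CPM, and Zkscan4, at 0.230 to 1.84 CPM, were covered by few counts, whereas Slc1a2 had 76.6 to 229 CPM. For Cyp2f2 they were Dock8 (0.91), Man2b2 (0.89) and Carnmt1 (0.89). For Sds they were Plbd2 (0.97), Fn3k (0.91) and Sdsl (0.89), which encodes a serine dehydratase-like enzyme. Ass1 and Axin2 were added to this rule after their values were seen: Iars (0.98), Acsl5 (0.96) and Snd1 (0.96) were most like Ass1, and Tbx3 (0.87), a pericentral transcription factor and Wnt target, Pxn (0.86) and Senp7 (0.85) most like Axin2. Iars, the cytosolic isoleucyl-tRNA synthetase, spanned 5.64 to 35.6 CPM and Acsl5, a long-chain acyl-CoA synthetase, 101.9 to 732.4 CPM.

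Other genes of each zone gave the wider view. Of 15 further pericentral genes, 0 were higher and 2 lower at 6 mg/kg by edgeR, with a median log2 fold change of -0.03; of all 12968 genes 2.8% passed, 234 higher and 129 lower. Avpr1a, the vasopressin receptor, fell to 21.9 CPM (SD 6.25, n = 6), against 44.8 CPM in vehicle (SD 4.25, n = 4), and the groups did not overlap (log2 fold change -1.03, SE 0.219, edgeR adjusted p = 0.0204). Gulo, the last enzyme of vitamin C synthesis, fell to 366 CPM (SD 119, n = 6), against 612 CPM (SD 52.5, n = 4), again without overlap (-0.74, SE 0.196, edgeR adjusted p = 0.0437). Of 7 pericentral cytochromes beside Cyp2e1, 3 rose and 0 fell, with a median of 0.43. Cyp1a2, the caffeine-oxidizing cytochrome and a target of the aryl hydrocarbon receptor, rose by 1.44 on the log2 scale (SE 0.231, edgeR adjusted p = 0.00592), with 941.5 CPM (SD 268, n = 6) beside 347 CPM in vehicle (SD 26.3, n = 4). Cyp2c50 and Cyp2c37 had log2 fold changes of 1.16 and 1.04 (edgeR adjusted p = 0.0199 and 0.0272), although close paralogs in the Cyp2c family may share reads. Genes of the same zone thus passed in opposite directions at this dose, while Cyp2e1 was at -0.21 and did not pass. Whether the markers and these lists differ from each other was not tested. Counts for all these genes depended on single animals, as they did for the whole table: 363 genes passed at 6 mg/kg, 3 without vehicle animal 4 and 1302 without animal 56 at 6 mg/kg. They also depended on the library properties above, with 0 genes left when the clock index was a covariate (496 had an unadjusted p below 0.05) and 0 when the GC slope was (1389 did).

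Of 17 further periportal genes, 0 passed at 6 mg/kg, 5 had an unadjusted p below 0.05, beside 24.2% of all genes, and the median was -0.21. Uroc1, urocanase, which follows Hal in histidine breakdown, was at 0.49 (SE 0.178, edgeR adjusted p = 0.110). Cps1, which makes carbamoyl phosphate for the urea cycle, averaged 1005 CPM (SD 593, n = 6) at the high dose, against 2245 CPM (SD 290, n = 4) in vehicle, and although the ranges did not overlap it did not pass (-1.16, SE 0.438, edgeR adjusted p = 0.122). Of 26 genes of nitrogen metabolism, which include 6 of the markers, 0 passed, 9 had an unadjusted p below 0.05, 3 of them higher and 6 lower, and the median was -0.22; over all genes 2.8% passed and 24.2% had such a p. Ftcd, which completes histidine breakdown, and Gpt, alanine aminotransferase, had the smallest p, with log2 fold changes of 0.56 and 0.53 (edgeR adjusted p = 0.0980 and 0.100). Among the lower ones, and chosen after its values were seen, Got1, cytosolic aspartate aminotransferase, averaged 189 CPM (SD 103, n = 6) against 339 CPM in vehicle (SD 11.7, n = 4) without overlap, and did not pass (-0.84, SE 0.362, edgeR adjusted p = 0.161). The urea cycle enzymes Otc, at -0.24, and Asl, at 0.20, had smaller values than Ass1 and Cps1 and did not pass; these 2 were chosen after their values were seen. Of 5 midzonal genes, 0 passed at 6 mg/kg, with Igfbp1 at -2.45 (edgeR adjusted p = 0.0799) and Cyp8b1 at -0.82 (edgeR adjusted p = 0.234). For the slope over dose 1 of these 5 passed, as lower, beside 4.81% of all genes.

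Of the Wnt ligands and R-spondins, 5 of 6 were tested and 0 passed at 6 mg/kg, with a median log2 fold change of -0.35. Rspo3, the ligand of Lgr5 that central vein endothelium secretes, averaged 4.07 CPM (SD 1.48, n = 6) at 6 mg/kg, against 6.74 CPM (SD 1.65, n = 4) in vehicle; the log2 fold change was -0.72 (SE 0.293, edgeR adjusted p = 0.143). Wnt4 was at 0.55 (edgeR adjusted p = 0.311). Among receptors and core factors 20 of 21 were tested, 2 rose and 0 fell, with a median of -0.08; 4 higher and 3 lower had an unadjusted p below 0.05. Over all genes 2.8% passed and 24.2% had such a p. These were the beta-catenin coactivators Bcl9, at 1.05 (SE 0.260, edgeR adjusted p = 0.0345), and Bcl9l, at 0.78 (SE 0.201, edgeR adjusted p = 0.0419). Ctnnb1, beta-catenin itself, was at -0.76 (edgeR adjusted p = 0.124); it was chosen after its value was seen. Of 10 Wnt targets, Lgr5 and Axin2 among them, 0 passed, with a median of 0.12. Ccnd1, cyclin D1, had the smallest p of these, with a log2 fold change of 0.93 (edgeR adjusted p = 0.0848), and Lgr5 the next.

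**Figure D5:**
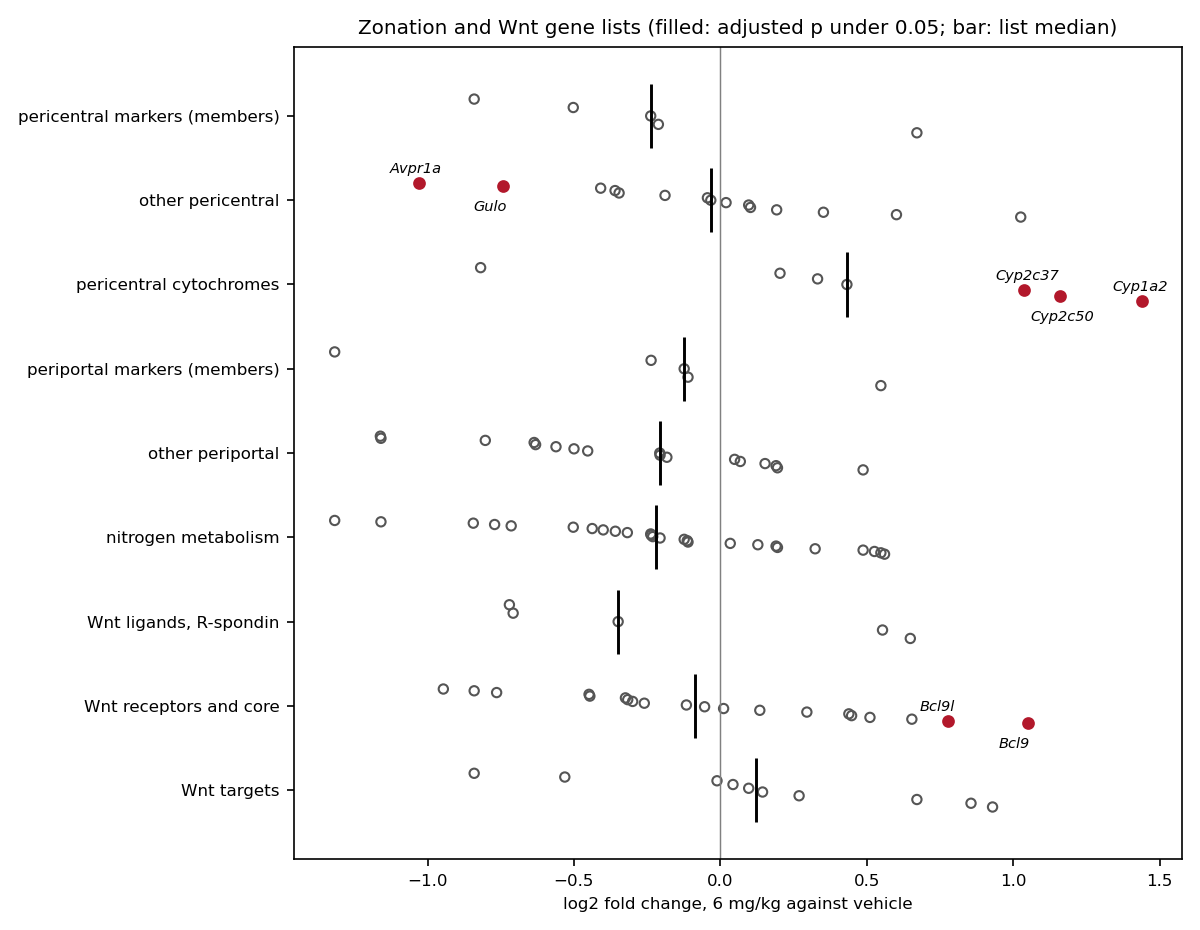
Log2 fold change at 6 mg/kg against vehicle (x axis) of every tested gene in the zonation, nitrogen and Wnt lists; filled points passed an adjusted p of 0.05 over all genes and bars are list medians. The 3 pericentral cytochromes Cyp1a2, Cyp2c50 and Cyp2c37 and the coactivators Bcl9 and Bcl9l are filled on the right, and Avpr1a and Gulo on the left; no marker is filled.

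Markers of other liver cells were set beside these values. Their summed levels were scaled by total counts, unlike the single genes, so the sums and the log2 fold changes are on different scales. Of 8 sinusoidal endothelial genes 0 passed at 6 mg/kg, with a summed level of 229.8 to 278.8 CPM in vehicle and 257.1 to 334.9 CPM at 6 mg/kg; the median log2 fold change was -0.28 with 2 of 8 above 0. These 2, Stab1 and Stab2, had the smallest p, at 0.75 and 0.48 (edgeR adjusted p = 0.108 and 0.140). Of 7 Kupffer cell genes 1 rose, Clec4f, a lectin of these liver macrophages (log2 fold change 0.93, SE 0.226, edgeR adjusted p = 0.0333), and Timd4 was at 0.99 (edgeR adjusted p = 0.0557). The median of the 7 was 0.43, with 5 above 0. Their summed level was 117 to 207.8 CPM in vehicle and 206.7 to 389.5 CPM at 6 mg/kg. Of 3 blood genes 0 passed and 2 had an unadjusted p below 0.05, with a median log2 fold change of -2.77. The blood share was 0.00515% to 0.288% of counts in vehicle and 0.00844% to 0.0229% at 6 mg/kg, so the ranges overlapped. Of 7 stellate, 5 cholangiocyte and 15 brain genes tested, 0 passed in each list, with 1, 1 and 0 at an unadjusted p under 0.05. For each of these cell lists the shares over all genes were 2.8% passing and 24.2% unadjusted. The part of these cells in the marker values was not tested.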

How the data were processed

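The authors deposited whole-number read counts per gene with Entrez identifiers, 1 table per tissue; the submitters' processing notes name FastQC, HISAT2 and mm10, and the counting tool, annotation and use of strand are not given in the sources used here. The labels' protocols name TRIzol, RNeasy columns, and poly(A) capture or rRNA removal. The liver table lists no gene with fewer than 10 counts in total. Liver columns were matched to samples by title and grouped by treatment label. No replicates agreed within sampling noise (smallest chi-square per degree of freedom 12.9).

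All 20 liver libraries were fitted together in edgeR 4.0.16 (R 4.3.3) with filterByExpr, TMM scaling, a robust quasi-likelihood test and Benjamini-Hochberg adjustment over 12968 genes. The slope used dose ranks. CPM values of single genes are TMM-scaled, with a prior count of 2 on the log2 scale. The summed levels of cell markers, the clock index and the values set beside the brain tables were scaled by total counts alone. The clock index added 0.5 to each count. CPM per kilobase used the longest GENCODE transcript. Permutation tests (scipy 1.17.1) were two-sided, exact between groups and with 100000 draws within dose groups for correlations. The script was tested on simulated data.

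Alternatives were DESeq2 1.42.0, median-ratio factors, no filter, a mean of at least 10 counts, the 2 groups alone, 1 surrogate variable (sva 3.50.0), covariates, 0.1 mg/kg as reference, a slope over mg/kg and each replicate left out. The GC slope covariate, the relations of markers to library values, values without animal 52 and the alike genes of Ass1 and Axin2 were chosen later, after seeing the data. The markers and gene lists were chosen with earlier results of these data known. Named genes outside the markers were, in each list, up to 4 that passed at 6 mg/kg by smallest p or, where fewer than 2 passed, the 2 with the smallest p.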

Additional observations from a re-analysis of the deposited data

Results flagged for a closer look

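Of 52 sets of 4 or 6 libraries checked, 6 had a library far from the others by Dixon's 95% critical value, where chance gives about 1 in 20 sets, here 2.6. Of the 40 sets that concern a marker, 5 had one. Lgr5 was 8.44 CPM in animal 58 at 6 mg/kg, above the other 5 livers at 3.80 to 5.14 CPM. Hal was 172.8 CPM in animal 29 at 0.1 mg/kg, below 318.6 to 347.8 CPM, and Gls2 was 221.2 CPM in the same liver, below 401 to 436.6 CPM, while Cyp2e1 was at its highest there, 9143 CPM. Ass1 was 901.5 CPM in animal 28 at 0.1 mg/kg, above 161.1 to 189.7 CPM, and 1169 CPM in animal 41 at 1 mg/kg, above 63.8 to 449.3 CPM. The brain share was 0.0147% in vehicle animal 7, above 0.00265% to 0.00305% in the other 3 vehicle livers; Glul in that liver was 1367 CPM, beside 1094 to 1352 CPM in the others.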

How the results depend on the processing

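Among the alternatives run, 0 of the 10 markers passed at 6, 1 or 0.1 mg/kg, and for the slope 1 passed (Lgr5, with 1 surrogate variable) in 1 of 29. At 6 mg/kg the main count of 363 genes was 1122 by DESeq2, 241 unfiltered, 13 from the 2 groups alone, 5 against 0.1 mg/kg, and 3 to 1302 when a replicate was left out. It was 0 when the clock index was a covariate (496 had an unadjusted p below 0.05) and 0 when the GC slope was (1389 did). Markers that never passed changed sign at 6 mg/kg under the clock index (Cyp2e1 0.0407, Cyp2f2 0.0243, Hal 0.0550, Gls2 0.0141, Sds -0.0718, Ass1 0.126), under the GC slope (Cyp2f2 0.122, Gls2 0.0572, Sds -0.319), against 0.1 mg/kg (Hal 0.0518, Gls2 0.0505), and without a replicate (Hal -0.190 to 0.0593, Gls2 -0.237 to 0.0190). Slopes that changed sign were those of Cyp2f2 (0.000125 under the surrogate variable, 0.0236 under the GC slope), Hal (-0.0281 under the GC slope, -0.0276 over mg/kg), Sds (-0.0504 under the clock index, -0.127 under the GC slope) and Gls2 (0.00685 under the surrogate variable, 0.0227 under the clock index, 0.000226 under the brain share, 0.0274 under the GC slope), and without a replicate those of Cyp2f2 (-0.0974 to 0.0476), Hal (-0.0191 to 0.0654) and Gls2 (-0.0357 to 0.0383). The difference in brain share ran from -0.000765 to 0.00401 percentage points with a library left out; without vehicle animal 7 its exact permutation p was 0.0476. The clock index difference of 3.93 stayed between 3.34 and 4.48. For each change the cause was not tested. The 2 pairs of markers that passed were still 2 in number with median-ratio factors and with a prior count of 0.5. No paired analysis was possible because the liver dose groups share no animal number. Depth bears most on Axin2, with 16 to 234 counts per library, and on Lgr5, with 22 to 97.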

Other observations

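Of 13 fasting and glucagon genes, which include Sds, Gls2 and Hal, 0 rose and 1 fell at 6 mg/kg, with a median log2 fold change of -0.64. An unadjusted p below 0.05 was seen for 4 of the 13, all lower, where 24.2% of all genes had such a p and 2.8% passed. Pdk4, which holds back pyruvate oxidation in fasting, averaged 6.02 CPM (SD 2.83, n = 6) against 16.1 CPM in vehicle (SD 8.58, n = 4) and fell by 1.41 on the log2 scale (SE 0.337, edgeR adjusted p = 0.0320). Igfbp1, induced in fasting and held low by insulin, had the next smallest p and did not pass at 6 mg/kg. For the slope over dose 2 of the 13 passed, both lower, beside 4.81% of all genes. Of 15 clock genes 5 rose and 1 fell at 6 mg/kg, and 9 had an unadjusted p below 0.05. Over all genes 2.8% passed, 234 higher and 129 lower, and 24.2% had such a p. Tef, Per3, Dbp and Usp2, all outputs or members of the circadian loop, had log2 fold changes of 1.42, 2.08, 1.68 and 1.88 (edgeR adjusted p = 0.0130 for Tef and 0.0134 for each of the others). For each of these genes all 4 livers at 0.1 mg/kg were already above every vehicle liver. Usp2 averaged 29.9 CPM there, against 22.1 CPM at 6 mg/kg and 5.99 CPM in vehicle. Of the 15 clock genes 1 passed at 0.1 mg/kg (0.0154% of all genes) and 0 at 1 mg/kg (0%). The times at which livers were taken are not given in the sources used here, so a difference in sampling time and an effect of dose cannot be told apart.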
